A study of Mus musculus with 4 samples.

Results

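Transcript levels of 9 genes of retinoid binding and metabolism were compared between 2 kinds of mouse early blastocyst. The first was made by in vitro fertilization (IVF). The second was made by somatic cell nuclear transfer (SCNT), the transplanting of a body cell's nucleus into an oocyte. The 9 genes were Rbp2, Rbp4, Crabp1, Crabp2, Stra6, Aldh1a1, Aldh1a2, Cyp26a1 and Rarg. They were found by their symbols, and all 9 were present among the 23235 gene symbols of the series. The set was chosen partly from the IVF and SCNT levels of these same libraries, in which Rbp2 was already known to be among the most different genes, so those values are given as a description and without a test. Each group had 2 libraries of 6 pooled embryos, and the embryos were lysed at 96 hours, counted from fertilization or from activation of the oocyte.

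For IVF, oocytes of the 129S1/Svj background that carried a knockout of Xist were fertilized by CAST/EiJ sperm of the wild type. Donor nuclei for SCNT were those of embryonic fibroblasts, heterozygous for the same knockout, from Xist knockout females on a 129S1/SvImj background and CAST/EiJ males. Their recipient oocytes came from B6D2F1/J (BDF1) mice. Both groups therefore carried a 129 by CAST nuclear genome, while the oocytes differed in strain and in Xist genotype, and RNA remaining from the oocyte cannot be told apart from the method of making the embryo. Xist lies on the X chromosome, so donor cells heterozygous for its knockout, and the SCNT embryos made from them, were female by that label. The sex of the IVF embryos was not determined here, so a difference in sex cannot be told apart from the method either. The SCNT files name their columns after Kdm4d, which encodes a histone demethylase and is absent from the labels. If the SCNT embryos were treated with Kdm4d, which is not stated in the labels, that treatment would belong to every SCNT value and cannot be told apart from nuclear transfer. Kdm4d itself stood at 0 and 0.0382 FPKM in IVF, against 0.0649 and 0.117 FPKM in SCNT. FPKM, the unit taken for the values, counts fragments per kilobase of transcript, scaled to the mapped total. Xist stood at 1.09 and 13.9 FPKM in IVF, against 4.13 and 3.33 FPKM in SCNT, and the part of the gene that the knockout removes is not stated in the labels, so its level is no check of the genotype.

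FPKM summed to between 933167 and 985197 per library, and the number of genes at 1 FPKM or more was 10802 to 10923. The files hold no counts, so the absolute depth is unknown. From low values, the FPKM worth of 1 fragment in IVF library 1 was 1.04 times that in SCNT library 1 and 1.19 times that in IVF library 2. In IVF library 2 it was 0.978 times that in SCNT library 2. The libraries of like number were thus sequenced to about the same depth, and the lowest values below rest on few fragments. Whether libraries of 1 group stem from separate matings or days is not stated in the labels. The blastocyst label held for both groups: Krt8, a trophectoderm keratin gene, stood between 1427 and 1710 FPKM and Pou5f1, a pluripotency factor gene, between 112 and 154 FPKM. Meanwhile 11 of 14 fibroblast markers and 9 of 10 cumulus and granulosa cell markers stayed under 1 FPKM in every library. The exceptions were Vim, at 4.34 to 6.09 FPKM, Col1a1, up to 3.38 FPKM, Twist1, up to 1.57 FPKM, and, of the second list, Amhr2, at 4.57 to 11.2 FPKM.

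Retinoids are vitamin A and its derivatives. Retinol travels in blood bound to the carrier encoded by Rbp4 and enters some cells through the membrane receptor encoded by Stra6. Inside the cell it is held by small cytosolic binding proteins such as that of Rbp2, oxidised to retinal and then, by the retinal dehydrogenases of Aldh1a1 and Aldh1a2, to retinoic acid. Retinoic acid is bound in the cytosol by the proteins of Crabp1 and Crabp2, acts through nuclear receptors such as that of Rarg, and is broken down by the enzyme of Cyp26a1. In the embryo the pathway is best known for patterning after gastrulation, and retinoic acid drives differentiation of pluripotent cells in culture.

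The 4 genes below are shown because 3 of them, Rbp2, Crabp1 and Aldh1a2, had groups that did not overlap and were above 0 in every library, and because Cyp26a1 is the classic gene induced by retinoic acid. Each sequence is the RefSeq promoter window of build GRCm38.p6, from 250 bases before to 50 bases after an annotated start, 5′ to 3′ on the strand of the gene; windows were matched for 8 of the 9 genes, 14 windows in all. These coordinates are of another build than the mm9 alignment of the files. In the first pair, capitals mark a nuclear receptor hexamer, which is AGGTCA or a variant of it, GGGTCA or AGTTCA or else GGTTCA, on either strand. Thus TGAACT is the variant AGTTCA read on the other strand, and TGACCT is likewise AGGTCA.
Rbp2, chr9:98490287-98490586, plus strand: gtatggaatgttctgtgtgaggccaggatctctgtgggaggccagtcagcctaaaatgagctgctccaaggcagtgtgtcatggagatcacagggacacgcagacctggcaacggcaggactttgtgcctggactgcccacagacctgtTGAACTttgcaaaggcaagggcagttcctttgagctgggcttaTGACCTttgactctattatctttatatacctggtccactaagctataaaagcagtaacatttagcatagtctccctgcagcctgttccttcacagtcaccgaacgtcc
Cyp26a1, chr19:37697558-37697857, plus strand: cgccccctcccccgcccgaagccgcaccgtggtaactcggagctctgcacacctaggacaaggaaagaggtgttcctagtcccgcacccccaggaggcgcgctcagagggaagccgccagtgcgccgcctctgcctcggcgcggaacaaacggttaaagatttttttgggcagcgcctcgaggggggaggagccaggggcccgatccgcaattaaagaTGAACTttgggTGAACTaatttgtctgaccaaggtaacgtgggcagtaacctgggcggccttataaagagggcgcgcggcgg
In the second pair, which held no such hexamer, capitals mark each CpG.
Crabp1, chr9:54764498-54764797, plus strand: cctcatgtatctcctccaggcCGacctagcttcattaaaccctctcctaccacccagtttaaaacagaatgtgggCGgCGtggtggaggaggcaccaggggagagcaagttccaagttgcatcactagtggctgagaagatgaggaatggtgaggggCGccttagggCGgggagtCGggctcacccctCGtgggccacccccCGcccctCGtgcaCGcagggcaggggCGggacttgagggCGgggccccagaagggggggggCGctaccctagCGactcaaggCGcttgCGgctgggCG
Aldh1a2, chr9:71215539-71215838, plus strand: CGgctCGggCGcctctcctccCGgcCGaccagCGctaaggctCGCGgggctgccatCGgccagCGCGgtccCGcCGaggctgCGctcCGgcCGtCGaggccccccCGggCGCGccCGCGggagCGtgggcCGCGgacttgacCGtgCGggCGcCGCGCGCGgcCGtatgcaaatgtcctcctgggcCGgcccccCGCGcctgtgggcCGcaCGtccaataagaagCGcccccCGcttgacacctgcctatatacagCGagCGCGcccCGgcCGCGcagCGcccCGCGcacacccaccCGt

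The Rbp2 window held 2 hexamers, the first AGTTCA and the second AGGTCA, both against the direction of the gene, and a TATAAA box, and it held 4 CpG. A TATAAA box was also in the Cyp26a1 window, 29 bases past the annotated start, and in a window of Rbp4. Over all windows 8.32% held such a box. The Cyp26a1 window held 2 hexamers that form a direct repeat with a spacer of 5 bases, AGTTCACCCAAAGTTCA against the direction of the gene, the arrangement known as DR5. At least 1 hexamer was present in 43.7% of all 32851 windows and a DR5 of these hexamers in 0.0974%. A direct repeat of them with a spacer of 1, 2 or 5 bases was present in 0.588%. Of the 14 windows of these genes 6 held a hexamer and 1, that of Cyp26a1, held such a direct repeat. Of the 4 windows printed, that of Rbp2 held 4 CpG, that of Crabp1 17, that of Cyp26a1 26 and that of Aldh1a2 50, against a median of 7 over all windows. These matches describe the sequence only, and no binding or methylation was measured here.

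**Figure D1:**
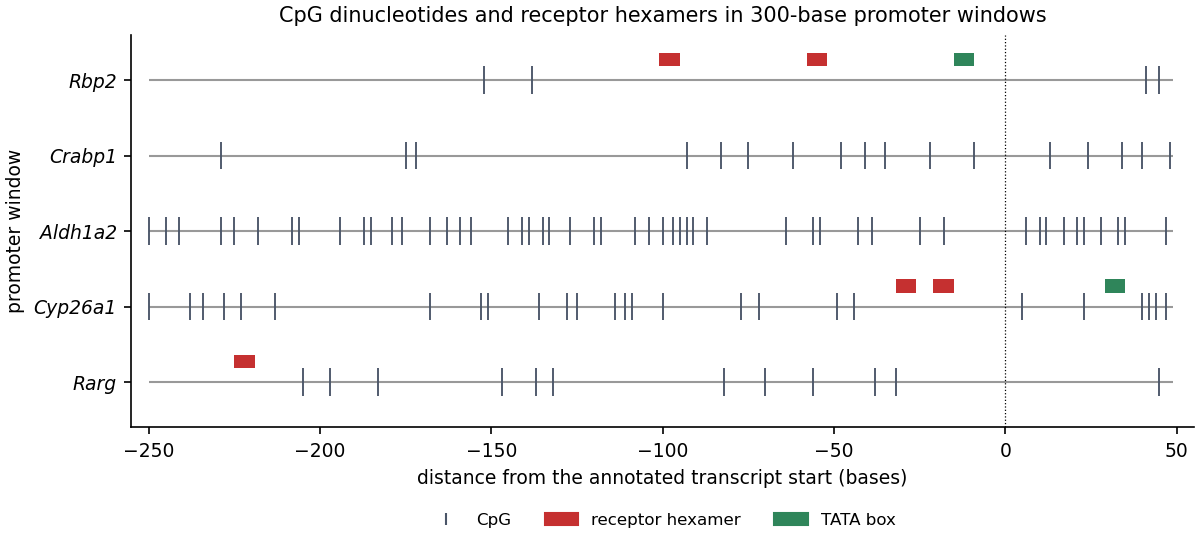
Positions of CpG dinucleotides (grey ticks), nuclear receptor hexamers (red) and TATAAA boxes (green) in the promoter windows of 5 retinoid genes, plotted as distance in bases from the annotated transcript start. Rbp2 has 4 CpG and 2 hexamers, Aldh1a2 has 50 CpG and none of the hexamers, and the 2 hexamers of Cyp26a1 lie side by side.

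Among the 9 genes, 1 stood far above the rest in IVF blastocysts. Rbp2, which encodes a cytosolic retinol-binding protein best known from the absorptive cells of the small intestine, stood at 10.2 and 9.90 FPKM in IVF, against 1.45 and 1.82 FPKM in SCNT. Both SCNT libraries were far below both IVF libraries, and within each group the libraries were close together. Group means were 10.1 ± 0.245 FPKM in IVF and 1.64 ± 0.262 FPKM in SCNT (mean ± SD, n = 2 each), so the level was 6.15 times as high in IVF, and the ratio lay between 5.43 and 7.06 over the 4 ways of setting an IVF library against an SCNT library. On the log2(FPKM + 1) scale, which understates changes of low genes, the difference of SCNT minus IVF was -2.07 ± 0.18 (SE), while the libraries of a group differed by 0.05 in IVF and 0.20 in SCNT. Of the 11039 genes with a mean of at least 1 FPKM, 61 had a more negative difference than Rbp2, and only 9 of these were not microRNA or small nucleolar RNA genes. Together, microRNA and small nucleolar RNA genes held a share of all FPKM that also moved with the groups, 12.4% and 12.2% in IVF and 9.50% and 9.73% in SCNT; with those genes taken out of the scaling the difference of Rbp2 was -2.12.

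In pooled whole embryos, fewer cells expressing a gene and less RNA per cell cannot be told apart. Of 10 markers of trophectoderm, the layer that will form placenta, 8 had higher estimates in SCNT, with a median difference of 0.28, and 3 had an unadjusted p under 0.05 (7.09% over all tested genes), while 0 passed limma's test (0.127% over all). Those 3 were Elf5, at 3.23 and 3.88 FPKM in IVF, against 17.9 and 9.50 FPKM in SCNT, Eomes and Cdx2, each with both SCNT libraries above both IVF libraries. The 10 markers of inner cell mass and epiblast had 5 estimates higher and 5 lower, with 0 at an unadjusted p under 0.05. Of the markers of primitive endoderm 8 were tested, with 3 estimates higher and 5 lower. Among them 2 had an unadjusted limma p under 0.05, both higher in SCNT, and 0 passed. The part of these markers in the values of Rbp2 and the other retinoid genes was not tested.

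Rbp2 made up 68.9% and 73.3% of the summed FPKM of the 9 genes in IVF and 28.6% and 24.4% in SCNT. Without Rbp2 the remaining 8 genes summed to 4.63 and 3.61 FPKM in IVF and to 3.62 and 5.65 FPKM in SCNT, ranges that overlap. Without Rbp2 the totals of the groups were thus no longer separate. The mean of Rbp2 over the 4 libraries, 5.86 FPKM, exceeded that of 69.6% of all symbols in the files, and Rarg came next, above 56.0%.

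**Figure D2:**
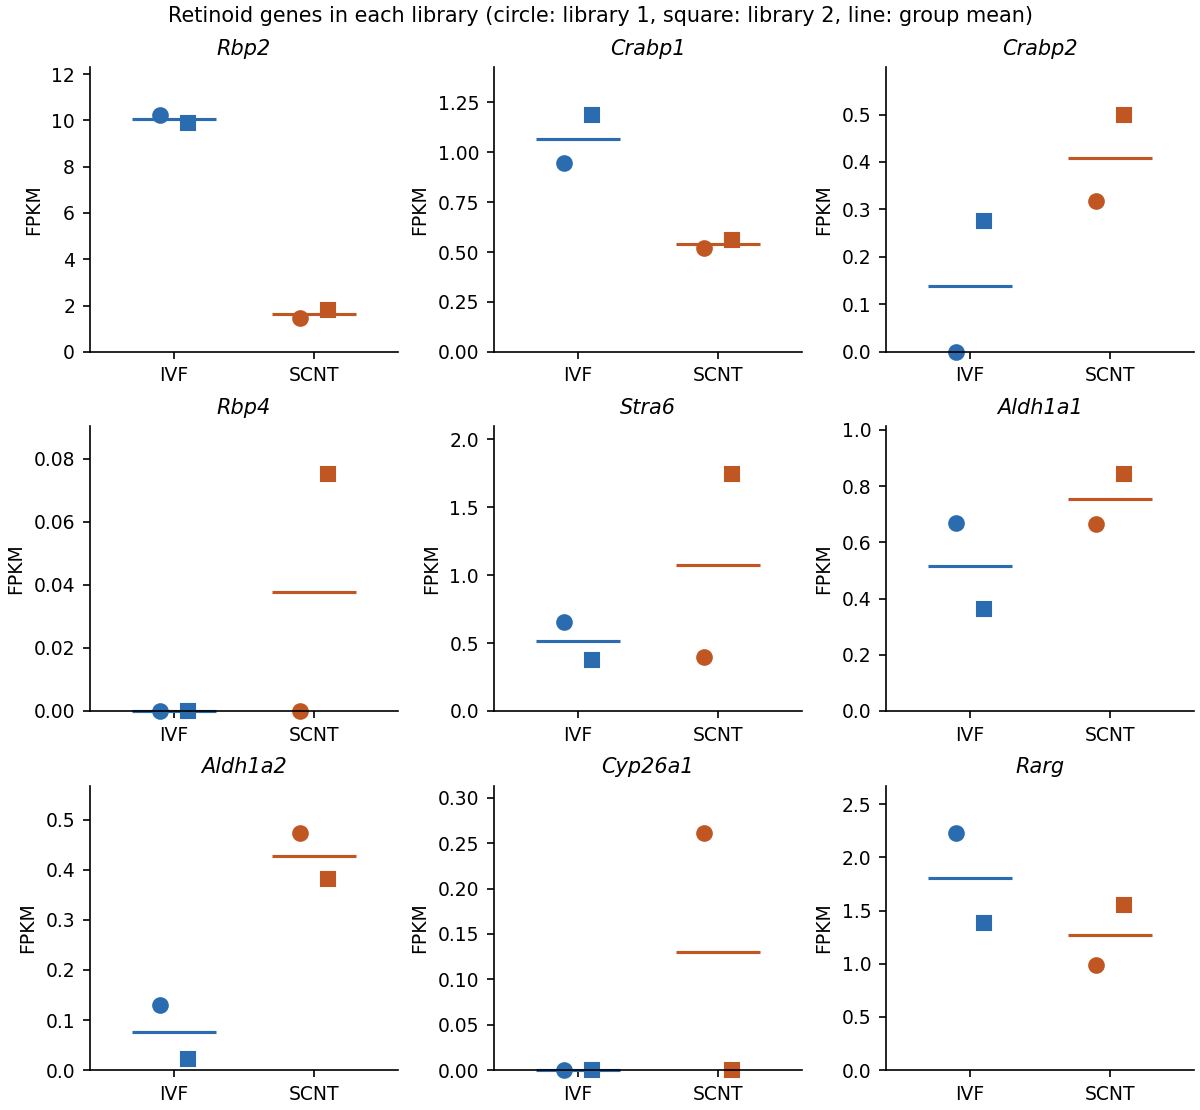
FPKM of the 9 retinoid genes in each library, with IVF in blue, SCNT in orange, circles for library 1, squares for library 2 and lines for group means; each panel has its own scale starting at 0. Rbp2 is near 10 FPKM in both IVF libraries and under 2 FPKM in both SCNT libraries, while the other panels stay under 2.5 FPKM.

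Of the other binding proteins, Crabp1, which encodes a cytosolic retinoic acid-binding protein, was also lower in SCNT, and Crabp2, which encodes the form that passes retinoic acid to its nuclear receptor, was higher. Crabp1 stood at 0.947 and 1.19 FPKM in IVF, against 0.520 and 0.560 FPKM in SCNT. The groups did not overlap, the IVF mean was 1.98 times the SCNT mean, and the log2 difference was -0.42 ± 0.12 (SE, from the fit without a filter on low values). That size depends on the pseudocount of 1, since it was -0.86 with a pseudocount of 0.1 and -0.13 with 5. Crabp2 stood at 0 and 0.276 FPKM in IVF, against 0.318 and 0.50 FPKM in SCNT. Its groups did not overlap either, but IVF library 2 lay close to SCNT library 1, and the difference of 0.32 ± 0.15 (SE, the same fit) ranged from 0.14 to 0.49 when 1 library was left out and was 1.37 with a pseudocount of 0.1 and 0.07 with 5. The pair of retinoic acid-binding proteins thus differed in opposite directions, each at about 1 FPKM or less. Rbp4, the gene of the serum retinol carrier, was listed at 0 in both IVF libraries and in SCNT library 1 and at 0.0752 FPKM in SCNT library 2, so its level was at the lowest end of what the libraries record.

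The gene of the retinol uptake receptor, Stra6, stood at 0.652 and 0.378 FPKM in IVF, against 0.398 and 1.74 FPKM in SCNT. Only SCNT library 2 was high, and SCNT library 1 lay between the IVF libraries. The SCNT libraries differed from each other by 0.97 on the log2 scale, more than the difference of 0.38 ± 0.37 (SE, fit without a filter) between the groups, and without SCNT library 2 the difference was -0.11. Rbp4 and Stra6 were both highest in SCNT library 2, but so were Crabp2 and Aldh1a1. The only value of Rbp4 above 0 was 0.0752 FPKM.

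The retinal dehydrogenases make retinoic acid. Aldh1a2, the form that supplies most retinoic acid in the embryo after gastrulation, stood at 0.129 and 0.0221 FPKM in IVF, against 0.473 and 0.382 FPKM in SCNT. Both SCNT libraries exceeded both IVF libraries, with a ratio of means of 5.65 and a log2 difference of 0.41 ± 0.08 (SE, fit without a filter) that ranged from 0.34 to 0.48 when 1 library was left out. With a pseudocount of 0.1 the difference was 1.65 and with 5 it was 0.10. All of its values were under 0.5 FPKM. Aldh1a1, which encodes a related enzyme, stood at 0.668 and 0.364 FPKM in IVF, against 0.664 and 0.843 FPKM in SCNT. IVF library 1 lay inside the SCNT range, so these groups overlapped, and the difference of 0.22 ± 0.14 (SE, the same fit) was smaller than the gap of 0.29 between the IVF libraries. It was 0.07 without IVF library 2, 0.36 without IVF library 1 and 0.51 with a pseudocount of 0.1. Aldh1a3, the other retinal dehydrogenase gene and not among the 9, was listed at 0 in both IVF libraries and at 0.0154 and 0.0421 FPKM in SCNT, and Aldh1a7, a close relative of Aldh1a1 whose reads may be shared with it, stayed under 0.1 FPKM in every library.

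Cyp26a1, which encodes the enzyme that clears retinoic acid, was listed at 0.261 FPKM in SCNT library 1 and at 0 in the other 3 libraries, so without that library both groups were at 0. SCNT library 1 also had the highest level of Col1a1, a fibroblast collagen gene, at 3.38 FPKM against 0.0846 to 0.730 FPKM in the others, and the highest summed level of the 14 fibroblast markers, at 12.8 FPKM against 6.04 to 8.57 FPKM. Of the 14 markers 10 were highest in that library, Col1a1 among them. Of the other 4, Twist1 was lowest there, at 0.521 FPKM against 0.658 to 1.57 FPKM, Thy1 at 0.374 FPKM lay below both IVF libraries, Prrx1 was highest in SCNT library 2, and Twist2 was at 0 in every library. Of the 10 trophectoderm markers, 7 were likewise highest in SCNT library 1. The markers are named after their values were seen. The part of fibroblast or trophectoderm RNA in the value of Cyp26a1 was not tested. Of its relatives, Cyp26b1 stayed under 0.15 FPKM in every library and Cyp26c1 was at 0 in all 4, both picked as the other members of that enzyme family.

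Rarg, which encodes a nuclear receptor for retinoic acid, stood at 2.23 and 1.38 FPKM in IVF, against 0.987 and 1.55 FPKM in SCNT. IVF library 2 lay between the SCNT libraries, so the groups overlapped, and the difference of -0.30 ± 0.25 (SE) was smaller than the gap of 0.44 between the IVF libraries. Leaving out 1 library moved it between -0.52 and -0.08. Of the other retinoic acid receptors, chosen here to place Rarg among its family, Rarb had a mean of 2.08 FPKM over the 4 libraries and Rara of 0.578 FPKM, against 1.54 FPKM for Rarg. The retinoid X receptors, with which they pair on DNA, were higher, with means of 11.4 FPKM for Rxrb, 5.25 FPKM for Rxra and 2.81 FPKM for Rxrg.

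In the order of mean levels of the 9 genes in IVF, Rbp2 came first, followed by Rarg, Crabp1, Aldh1a1 and Stra6, Crabp2 and Aldh1a2, with Rbp4 and Cyp26a1 at 0. Rarg (1.38 to 2.23 FPKM) and Crabp1 (0.947 to 1.19 FPKM) did not overlap in IVF, while Aldh1a1 and Stra6, with means of 0.516 and 0.515 FPKM, could not be ordered. Nor could Crabp2 (0 and 0.276 FPKM) and Aldh1a2 (0.129 and 0.0221 FPKM), which overlapped in IVF. In SCNT the lead of Rbp2 was gone: its range of 1.45 to 1.82 FPKM overlapped those of Rarg and Stra6. Crabp2 (0.318 to 0.50 FPKM) and Aldh1a2 (0.382 to 0.473 FPKM) overlapped each other in SCNT, just under Crabp1 at 0.520 to 0.560 FPKM.

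Across the 9 genes, 6 were above 0 in all 4 libraries and 3 were at 0 in at least 1. Only 2, Rbp2 and Rarg, had a mean of at least 1 FPKM and so entered the fit over all genes. The groups did not overlap for 4 of the 9 genes, 2 lower in SCNT (Rbp2 and Crabp1) and 2 higher (Crabp2 and Aldh1a2). Over all 19718 genes above 0 in at least 1 library the groups did not overlap for 31.3%, with 14.6% lower and 16.7% higher in SCNT, and since this contrast was known when the genes were listed, nothing is read from the comparison. The estimate was lower in SCNT for 3 genes and higher for 6, so the genes did not move one way. By position, 4 of the genes lie on chromosome 9 (Rbp2, Crabp1, Stra6 and Aldh1a2) and 3 on chromosome 19 (Rbp4, Aldh1a1 and Cyp26a1), Rarg lies on chromosome 15 and Crabp2 on chromosome 3; those on chromosome 9 include genes lower and genes higher in SCNT.

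**Figure D3:**
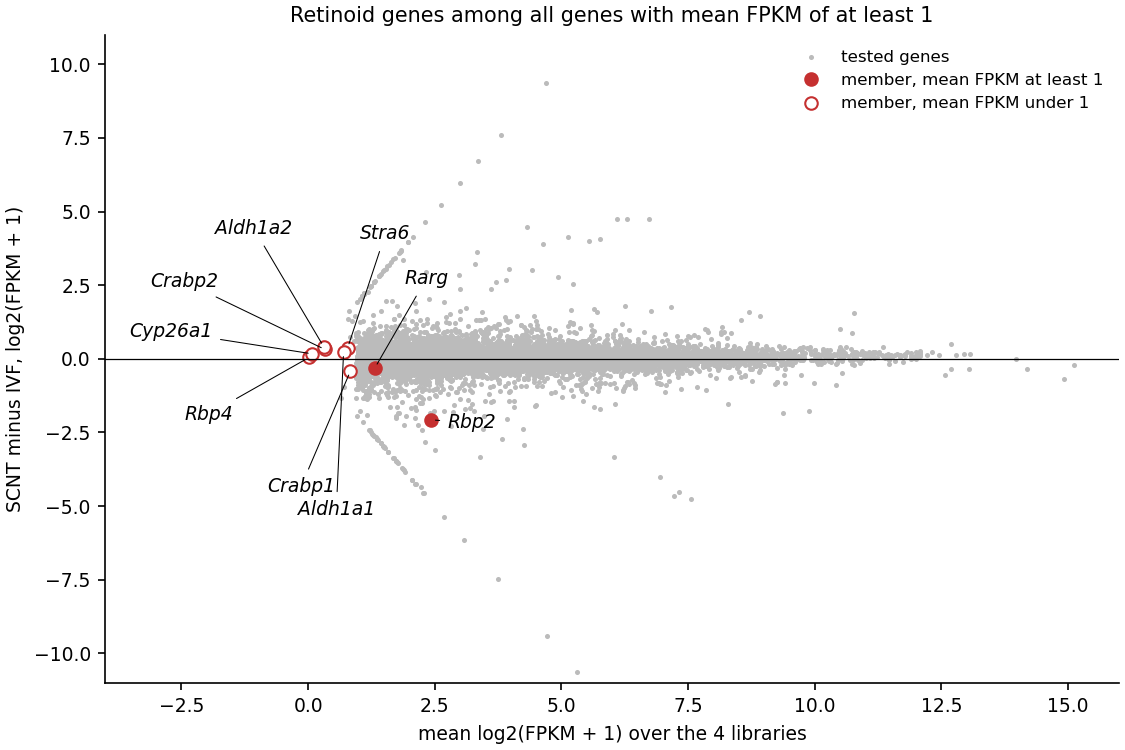
Difference of SCNT minus IVF on the log2(FPKM + 1) scale against the mean level for the 11039 genes with a mean of at least 1 FPKM (grey) and the 9 retinoid genes (red, filled where the mean is at least 1 FPKM). Rbp2 at -2.07 lies below the main cloud and Rarg at -0.30 inside it, while the other 7 sit at the low end of the level axis.

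Rbp2, Crabp1 and Crabp2 belong to the family of small intracellular lipid-binding proteins, which also holds the fatty acid-binding proteins (Fabp). Rbp7, a relative of Rbp2 that also encodes a cytosolic retinol-binding protein, stood at 1.07 and 0.111 FPKM in IVF, against 0.255 and 0.689 FPKM in SCNT. Its groups overlapped, and its level was below that of Rbp2 in every library.

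Of 10 Fabp family genes 5 were tested, and 0 passed limma's test at an adjusted p under 0.05 over all genes. Among all 11039 tested genes 14 (0.127%) passed. Of those 14, 11 were microRNA or small nucleolar RNA genes, a kind with 205 tested genes, and 10 had no signal throughout a group. Wherever the 0.127% is given, it thus comes mostly from such RNA genes and is a poor guide for lists of other genes. Of the 5 Fabp genes, 1 had an unadjusted p under 0.05, against 7.09% of all tested genes. That gene was Fabp9, known from testis, which stood at 11.7 and 8.54 FPKM in IVF, against 0.736 and 1.48 FPKM in SCNT. Its log2 difference was -2.41 ± 0.27 (SE, limma adjusted p = 0.123), and both SCNT libraries were far below both IVF libraries. Fabp4, best known from fat cells and macrophages, differed by -1.11 ± 0.51 (limma adjusted p = 0.800) with 1.89 and 7.02 FPKM in IVF, against 0.962 and 1.52 FPKM in SCNT, so a single IVF library was high. Fabp6 differed by 0.32 ± 0.65 (limma adjusted p = 0.9996). The abundant members were Fabp3, at 5873 to 9515 FPKM, and Fabp5, at 419 to 722 FPKM, whose groups overlapped; both are named for their level, after it was seen. The median difference of the 5 tested genes was -0.18, with 2 estimates higher and 3 lower, against a median of 0.01 over all tested genes.

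**Figure D4:**
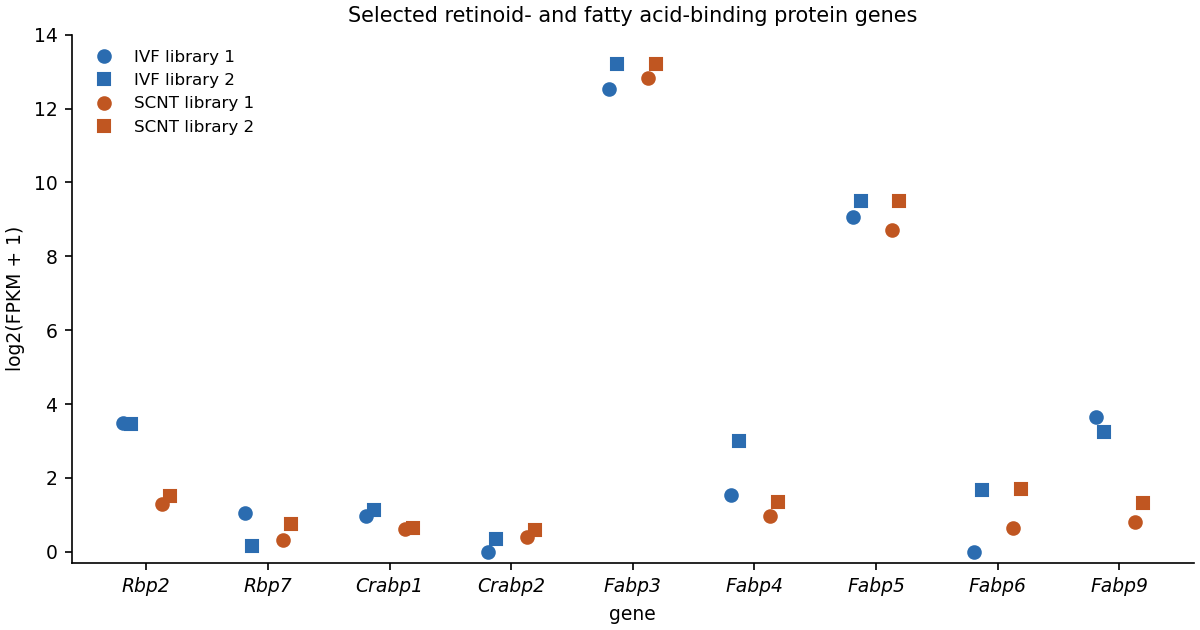
Levels on the log2(FPKM + 1) scale of selected cytosolic retinoid-binding and fatty acid-binding protein genes in each library, with IVF in blue, SCNT in orange, circles for library 1 and squares for library 2. Rbp2 and Fabp9 show both SCNT libraries well below both IVF libraries, while Fabp3 and Fabp5 are far higher in all 4 libraries and overlap between groups.

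The genes whose levels over the 4 libraries lay nearest to those of Rbp2, by Euclidean distance on the log2(FPKM + 1) scale, were Gstm6 (distance 0.48), Fabp9 (0.59), Rbmxl2 (0.59) and Tat (0.62). Gstm6, a glutathione transferase gene, stood at 7.44 and 10.8 FPKM in IVF, against 1.37 and 2.26 FPKM in SCNT. Rbmxl2, an RNA-binding protein gene known from germ cells, stood at 9.59 and 9.07 FPKM in IVF, against 2.61 and 1.56 FPKM in SCNT. Tat, the gene of tyrosine aminotransferase, stood at 9.11 and 8.46 FPKM in IVF, against 0.680 and 1.55 FPKM in SCNT. Each of the 4 had both SCNT libraries below both IVF libraries, which is how the distance picks them.

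Other genes of retinoid transport, oxidation, synthesis, degradation and signalling were taken from lists of 66 symbols that leave out the 9 genes. Of these, 64 were matched, with 1 gene counted under both its symbols, and 28 reached a mean of 1 FPKM. None of the 28 passed limma's test over all genes (0 at an adjusted p under 0.05, with a lowest adjusted p of 0.316), against 0.127% of all tested genes. With an unadjusted p under 0.05 there were 4, 3 higher and 1 lower in SCNT, against 7.09% of all tested genes. Their median difference was 0.03, with 15 estimates higher and 13 lower, against a median of 0.01 over all tested genes. The summed FPKM of the lists was 1468 and 1439 in IVF, against 1488 and 1412 in SCNT, but most of it came from 3 abundant enzyme genes, Akr1b8, Adh1 and Adh5.

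In transport and storage, 3 genes were tested, and the sums of the list did not overlap, at 101 and 79.2 FPKM in IVF, against 62.8 and 56.2 FPKM in SCNT. Most of that sum was Lrp2. Lrp2, which encodes megalin, the endocytic receptor that takes up the retinol carrier among many other ligands, stood at 75.4 and 61.9 FPKM in IVF, against 39.2 and 35.0 FPKM in SCNT. Its difference of -0.87 ± 0.19 (SE) did not pass (limma adjusted p = 0.384), although both SCNT libraries were below both IVF libraries. Lpl, a lipase gene, and Dgat1, whose enzyme can esterify retinol, differed by 0.33 and 0.05 and did not pass. Ttr, the gene of the partner of the retinol carrier in blood, was at 0 in 3 libraries and at 0.0446 FPKM in SCNT library 1, so carrier and partner were both near 0 in these embryos.

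Of 24 symbols listed mainly for enzymes that interconvert retinol and retinal, 10 were tested, with a median of 0.12, 7 estimates higher and 3 lower. A gene under 1 FPKM was listed there under both its symbols. Limma called 0 of the 10 (0.127% over all tested genes), while 2 had an unadjusted p under 0.05 (7.09% over all). Dhrs4, a retinal reductase gene, stood at 2.86 and 4.27 FPKM in IVF, against 5.74 and 6.41 FPKM in SCNT (difference 0.65 ± 0.22, limma adjusted p = 0.614). Akr1b3, an aldose reductase gene, differed by 0.61 ± 0.54 and Rdh11, a retinol dehydrogenase gene, by -0.61 ± 0.27, neither past the test. Dhrs4 was among the 2 genes with an unadjusted limma p under 0.05, while Akr1b3 and Rdh11 were not. The most abundant enzymes of this list, named for their level, were Akr1b8 at 491 to 621 FPKM, Adh1 at 401 to 518 FPKM and Adh5 at 110 to 130 FPKM, all with overlapping groups. Rdh10, the retinol dehydrogenase gene best known in embryos and named as such, was at 2.21 to 3.19 FPKM. RNA of Adh1, an alcohol dehydrogenase able to oxidise retinol, was thus high in both groups, while that of each retinal dehydrogenase of the Aldh1a family stayed under 1 FPKM.

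None of the 4 other listed genes of retinoic acid synthesis reached a mean of 1 FPKM, and of the 4 listed for its degradation only Cyp2s1, a cytochrome P450 gene with several substrates, did. Cyp2s1 was at 141 and 114 FPKM in IVF, against 100 and 130 FPKM in SCNT (difference -0.16 ± 0.23), with overlapping groups. Among 20 receptors and cofactors, 14 were tested, with a median of -0.08, 6 estimates higher and 8 lower. Rxrg, a retinoid X receptor gene, stood at 1.61 and 1.12 FPKM in IVF, against 3.75 and 4.75 FPKM in SCNT, a ratio of 3.12. Its difference of 1.15 ± 0.22 (SE) did not pass (limma adjusted p = 0.316), although both SCNT libraries exceeded both IVF libraries. It was the only 1 of the 14 with an unadjusted limma p under 0.05, a share near the 7.09% over all tested genes. Ncor1, a corepressor gene, and Nrip1, a coregulator gene, differed by 0.34 and 0.27 and did not pass.

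Of 22 genes known to respond to retinoic acid, 8 were tested, and the rest had a mean under 1 FPKM. Those tested did not move one way, with 5 estimates higher and 3 lower in SCNT and a median of 0.23. With limma 0 passed (0.127% over all tested genes) and 0 had an unadjusted p under 0.05 (7.09% over all). For so few genes, counts of 0 are near those shares and say little. The largest differences were 0.44 ± 0.18 for Rai14, an actin-associated protein gene, -0.42 ± 0.35 for Rec8, a meiotic cohesin gene, and 0.30 ± 0.23 for Pdgfra, a growth factor receptor gene. Rarb, itself a classic target of retinoic acid, was at 2.43 and 2.22 FPKM in IVF, against 1.63 and 2.04 FPKM in SCNT.

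The wider aldehyde dehydrogenase family, to which Aldh1a1 and Aldh1a2 belong, had 10 of 14 listed genes tested, with 5 estimates higher and 5 lower, a median of -0.03 and 0 called by limma (0.127% over all tested genes), 2 with an unadjusted p under 0.05 (7.09% over all). Aldh18a1, which encodes an enzyme of proline synthesis, stood at 6.70 and 4.91 FPKM in IVF, against 19.9 and 12.4 FPKM in SCNT (difference 1.31 ± 0.29, limma adjusted p = 0.382). Aldh1b1, a mitochondrial enzyme gene, differed by 0.89 ± 0.32 and Aldh1l1, a folate enzyme gene, by -0.50 ± 0.27, neither past the test.

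Markers of yolk sac endoderm, a tissue in which retinol carriers are known to be abundant, summed to 108 and 89.6 FPKM in IVF and to 93.5 and 110 FPKM in SCNT, with 6 of the 10 under 1 FPKM in every library. Apoa1, an apolipoprotein gene, differed within that list at 25.7 and 21.9 FPKM in IVF, against 45.6 and 67.9 FPKM in SCNT, while Lrp2 of the same list went the other way, as given above, so the overlapping sums hold opposite differences. Apoa1 is named after its values were seen. Cumulus and granulosa cell markers summed to 7.78 and 5.30 FPKM in IVF and to 8.96 and 11.9 FPKM in SCNT, nearly all of it Amhr2, with 3 of the 10 at 0 in every library. The part of these markers in the values of the retinoid genes was not tested.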

How the data were processed

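RNA-seq values of 4 libraries, 2 of IVF and 2 of SCNT blastocysts grouped by their titles, were taken as deposited. The authors made these FPKM values with TopHat2 2.0.14, Bowtie2 2.1.0 and Cufflinks 2.2.1 on mm9, as named in the submitters' processing notes without roles. The unit is inferred from Cufflinks and from the values, since per the file headers each column has a library name alone. Not given in the sources used here are the annotation, strand use, filters and scaling. Per the labels' protocols, SMARTer cDNA was amplified from whole embryos, and such amplification adds noise to low genes.

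Genes with a mean of at least 1 FPKM over the 4 libraries were tested on log2(FPKM + 1) in R 4.3.3. The tool was limma 3.58.1 with a trended prior and a group term, two-sided, at a Benjamini-Hochberg adjusted p under 0.05 over all genes. The code was tested on simulated data. P-values reflect only how these libraries vary, possibly for technical reasons. Values at or below 1e-06 counted as 0. The 9 genes and all lists were chosen with earlier results of these data known. Named genes were the 9, every called gene or otherwise the 3 largest absolute differences of each list, and the 4 genes nearest to Rbp2; others were added for context, after their values were seen. A gene of the fixed lists is not reported here by name. The worth of 1 fragment came from the most common ratio of values under 0.5 FPKM between libraries. Alternatives were other pseudocounts, filters, scalings and variance priors, a replicate block and leaving out each library.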

Additional observations from a re-analysis of the deposited data

How the results depend on the processing

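The difference of Rbp2 moved beyond the spread between replicates only with the pseudocount, to -2.56 with 0.1 and -1.18 with 5; those of Crabp1, Crabp2 and Aldh1a2 moved with both pseudocounts too, in relative terms by more. It stayed between -2.18 and -1.97 when 1 library was left out and was -2.09 with upper quartile scaling. Over all genes the count called, 14, became 9 with summed FPKM scaling without short RNA genes and 6 with those genes left out of the test unscaled (an alternative chosen after seeing the data); it was between 36 and 43 when 1 library was left out, where the spread comes from the 2 libraries of the other group alone. In the fatty acid-binding family, 1 gene, Fabp9, was called with that scaling (limma adjusted p = 0.0441) and with the robust prior (0.0446), in a range of 0.0441 to 0.463 over the 14 alternatives. No gene of the pathway, response or aldehyde dehydrogenase lists was called under any of them, the fits with a lone library included. Of the 9 genes, 3 had lower SCNT estimates in all alternatives but 1: without SCNT library 2 it was 4, Stra6 turning to -0.11, and there Rbp4 was at 0 in every library, as was Cyp26a1 without SCNT library 1. The replicate numbers are shared by label only; the correlation across genes of library 1 minus library 2 between groups was 0.309, and with the replicate block 20 genes were called over all genes and the difference of Rbp2 was -2.07. With no counts in the files, no counting error can be attached to values under 0.5 FPKM.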
